A study of Mus musculus with 6 samples.

Results

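The interleukin-1 and interleukin-6 systems were followed through the fracture callus by 10 genes, chosen by symbol among the 52081 gene identifiers that all libraries shared. The members were the ligands Il1a, Il1b and Il6, the natural antagonist Il1rn, the receptor chains Il1r1, Il1r2, Il1rap, Il6ra and Il6st, and the feedback inhibitor Socs3. Each member was described by where its transcripts lay among immune, stromal and vascular cells, and by genotype label. The cells came from femoral fracture calluses of 12-week-old mice, male by the study's methods, at 14 days post fracture (dpf), with 3 single-cell libraries in each of 2 groups. The control group was labelled wt and is called Piezo1 f/f in the study, that is, floxed Piezo1 without the deletion. The other group was labelled Col2CreERT; Piezo3-/- on the samples and Col2CreERT; Piezo1-/- in the design text, and corresponds to the study's Piezo1Col2a1 mice, in which a tamoxifen-inducible Cre under the Col2 promoter acts in cells that express Col2a1. By the study's description both genotypes received daily tamoxifen, 75 mg/kg for 5 days beginning on day 5.

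Interleukin-1 alpha and beta both signal through the receptor Il1r1 together with its accessory chain Il1rap, and the signal runs through Myd88 and Irak kinases to NF-kB. Il1rn, the interleukin-1 receptor antagonist, occupies Il1r1 without signalling, and Il1r2 is a decoy receptor that binds interleukin-1 and lacks a signalling domain. Interleukin-6 binds Il6ra and then pairs with Il6st (gp130), the signalling chain that it shares with oncostatin M, leukaemia inhibitory factor and interleukin-11. Il6st activates Jak kinases and Stat3, and Socs3, itself a Stat3 target, shuts this signal down. Both cytokines belong to the early inflammatory phase of bone repair and are also known to act on osteoclast formation.

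In GRCm38 (GENCODE M21), 3 members of the interleukin-1 system lie on chromosome 2: Il1a at 2:129299610-129309972 and Il1b at 2:129364570-129371139, both on the minus strand, and Il1rn at 2:24336853-24351494 on the plus strand. The receptor genes Il1r2 (1:40074079-40125231) and Il1r1 (1:40225080-40317257) are neighbours on the plus strand of chromosome 1, and Il1rap lies at 16:26581704-26730117 on the plus strand. Il6 lies at 5:30013114-30019981 (plus), Il6ra at 3:89864059-89913196 (minus), Il6st at 13:112464070-112510086 (plus) and Socs3 at 11:117966079-117970047 (minus). All 10 are protein-coding genes. The bases before the start of Il6 and Socs3 are shown, as RefSeq gives them for GRCm38.p6, because Il6 is a known target of NF-kB and C/EBP factors and Socs3 of Stat3. Il6 is read from chr5:30012864-30013113 on the plus strand, and Socs3 from chr11:117969502-117969530 on the minus strand. Capitals mark matches to the letters GGG, any 2 bases and TTTCC (NF-kB) and to TTNNGCAA (C/EBP) in Il6 and TTCNNNGAA (Stat) in Socs3.
Il6: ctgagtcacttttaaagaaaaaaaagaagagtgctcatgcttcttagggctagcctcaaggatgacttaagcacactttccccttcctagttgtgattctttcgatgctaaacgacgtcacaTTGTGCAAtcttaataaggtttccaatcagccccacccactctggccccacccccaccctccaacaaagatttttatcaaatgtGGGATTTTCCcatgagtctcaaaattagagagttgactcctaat
Socs3: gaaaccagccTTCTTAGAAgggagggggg
The NF-kB match began 44 bases and the C/EBP match 128 bases before the start of Il6. The Stat match lay 154 bases before the RefSeq start of Socs3. By the GENCODE coordinates above, the printed Socs3 bases lie within the gene, because the RefSeq start is further downstream. Over both strands of the 250 bases before 32851 annotated starts, 1.41% of windows held the NF-kB letters, 9.56% the C/EBP letters and 7.02% the Stat letters. Among the other members, the NF-kB letters were found before 1 of 3 RefSeq starts of Il1rn and the C/EBP letters before 1 start of Il1r1. The Stat letters were found before the RefSeq start of Il1r2, which also lies within its gene by GENCODE. A match is a description of the sequence and no evidence of binding.

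The libraries held 57626530 to 103784364 UMIs (unique molecular identifiers, which count captured mRNA molecules) with a median of 2554 to 9289.5 per barcode, and 41652 of 46944 barcodes were analysed (3068 to 10025 per library). Between any pair of libraries, 4 to 36 cell barcodes were shared. Levels are given in CPM, the gene's UMIs per 1000000 UMIs of the cells in question in 1 library. Piezo1, the targeted gene, stood at 67.4, 43.3 and 53.3 CPM in the chondrocyte-like and hypertrophic chondrocyte-like cells of control libraries 1 to 3 and at 134, 54.4 and 47.1 in libraries 1 to 3 labelled knockout. It was therefore not lower in the labelled knockout, although a 3' tag need not lie in the deleted part. The value of labelled knockout library 2 rests on 53 UMIs in 67 cells. The study itself checked the deletion by immunofluorescence staining of Piezo1 and reported lower Piezo1 in its hypertrophic chondrocyte cluster 2. Labelled knockout library 3 stood apart in genes of the sex chromosomes. Xist was at 578 CPM there, where the other 5 libraries had at most 0.170, and Ddx3y and Eif2s3y had 0 UMIs. This is the pattern of female cells, so sex was not balanced between the groups, although the methods give male mice. The counts of members called by genotype label are therefore given with and without labelled knockout library 3.

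Cells were clustered without the members and the pathway genes, and clusters were named "-like" from markers. The neutrophil-like class (4127 cells) carried S100a8, S100a9, Retnlg, Csf3r, Cxcr2 and Mmp8, the monocyte-like class (1969 cells) Ly6c2, Ccr2 and Plac8, the macrophage-like class (2948 cells) C1qa, C1qb, Mrc1 and Adgre1, and the dendritic-like class (1277 cells) H2-Ab1, Cd74 and Clec10a. Of the dendritic-like class, 764 cells lay in a cluster whose 10 leading genes also held C1qa, C1qb, C1qc and Ccr2. The endothelial-like class (5987 cells) carried Pecam1, Cdh5 and Kdr, and the pericyte-like class (1665 cells) Rgs5, Notch3 and Kcnj8. The 19266 stromal-like cells were split further, among others into a Pi16 progenitor-like class (Pi16, Clec3b and Cd34), a marrow stromal-like class (Lepr, Cxcl12 and Kitl) and a fibroblast-like class, whose leading genes were Olfr810, Cxcl5 and Ccl7 rather than its markers. Levels were compared between classes for 1 gene at a time. Some levels rested on few cells. Labelled knockout library 1 had 40 pericyte-like and 18 marrow stromal-like cells. Control library 1 had 23 monocyte-like and 40 neutrophil-like cells. The order of 18 classes present in at least 4 libraries is a description of cells grouped on their own profiles. The 2 highest classes of each member were set against each other within libraries on log2(CPM + 1). Medians of the differences are printed. The p comes from a two-sided exact sign-flip permutation test of their mean over 6 libraries, whose smallest possible p is 0.03125. Benjamini-Hochberg adjustment was over the 10 members. The 2 classes were picked by their medians in the same libraries. The p-values ignore this choice among 18 classes, so they describe the order and give it no independent support. With 6 libraries no adjusted p fell under 0.05.

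**Figure D1:**
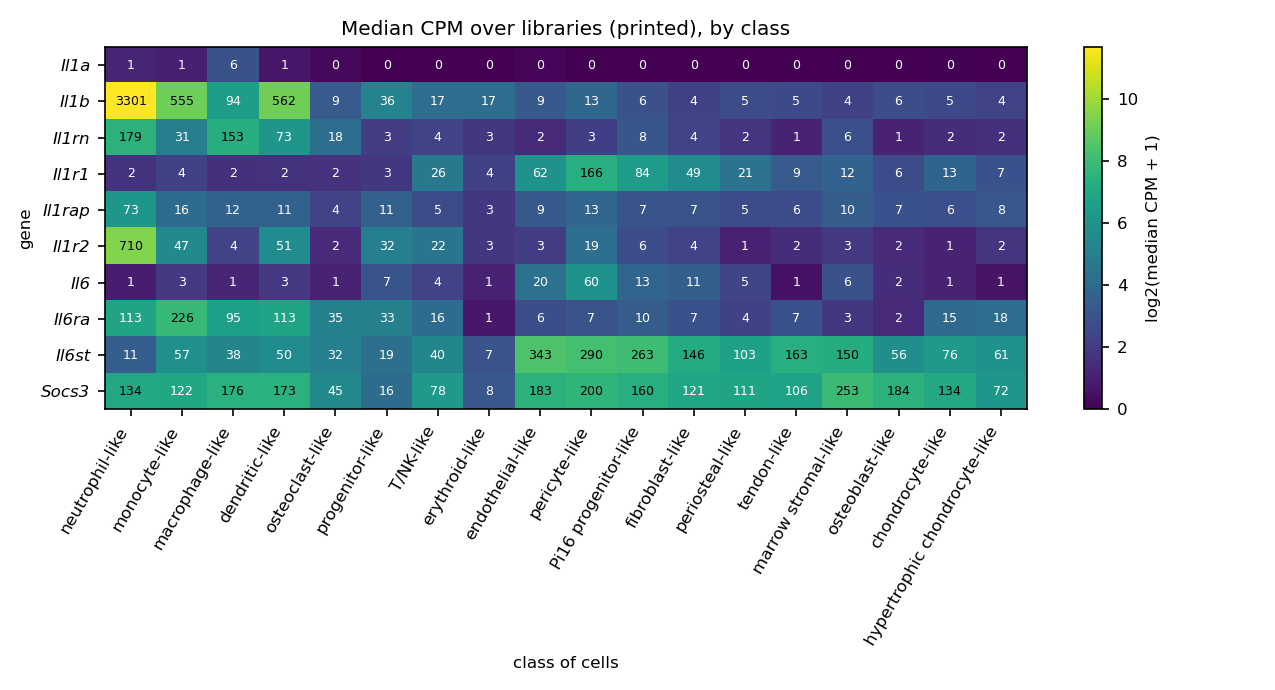
Median CPM over libraries of each member (vertical axis) in each of 18 classes (horizontal axis), printed in the tiles and coloured by log2(median CPM + 1). Il1b and Il1r2 are highest in neutrophil-like cells, Il6ra in monocyte-like cells, Il6 and Il1r1 in pericyte-like cells and Il6st in endothelial-like cells.

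Il1b was highest in neutrophil-like cells. It stood at 2824, 5774 and 5113 CPM in control libraries 1 to 3 and at 3779, 1519 and 1587 in labelled knockout libraries 1 to 3. The next class, dendritic-like cells, held 144, 1218 and 593 in the control libraries and 531, 136 and 729 in those labelled knockout. Neutrophil-like cells were the higher class in 6 of 6 libraries, by a median log2 difference of 2.97 (SD 1.08; exact permutation p = 0.0312, adjusted p = 0.0521). Monocyte-like cells (816, 752 and 240 in the controls, 1081, 202 and 358 in the labelled knockout) could not be set apart from dendritic-like cells, which were higher in 3 of 6 libraries by a median log2 difference of 0.07 (SD 1.46). Macrophage-like cells had less, between 19.1 and 399, and were lower than monocyte-like cells in 5 of 6 libraries. With each cell thinned to 500 UMIs, a median of 69.5% of neutrophil-like cells (38.7 to 75.5% over libraries) had an Il1b UMI, against 0.673% of endothelial-like cells (0 to 1.24%), which serve as the background of free RNA. Without thinning these shares were 81.7% and 4.82%. For comparison, the neutrophil transcript S100a8 stood at a median of 97992 CPM in neutrophil-like cells and 303 in endothelial-like cells.

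The neutrophil-like class itself was uneven in Il1b. The cluster led by Stfa2l1, Il1b and Cxcr2, genes of mature neutrophils, held 3692, 10531 and 7665 CPM in the control libraries and 4154, 3196 and 4028 in those labelled knockout. The cluster led by Ltf and Ngp, which encode granule proteins made during neutrophil maturation, held between 158 and 376 in the 4 libraries with at least 10 of its cells. The clusters thus did not overlap. The Ltf-led cluster made up 7 of 40, 417 of 1786 and 119 of 640 neutrophil-like cells in the control libraries, and 8 of 204, 329 of 901 and 291 of 556 in the labelled knockout. Because Il1b led the first cluster, this difference describes the clusters and was not tested.

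Il1a, the other agonist, was scarce, with 159 UMIs in all macrophage-like and 62 in all neutrophil-like cells. Macrophage-like cells were at 0, 6.27 and 9.96 CPM in the control libraries and at 5.43, 6.47 and 6.63 in those labelled knockout, while neutrophil-like cells were at 0, 6.60 and 1.70 and at 25.9, 0 and 0.974. The pair could not be ordered, since macrophage-like cells were higher in 3 of 6 libraries (median log2 difference 0.98, SD 1.83; exact permutation p = 0.5, adjusted p = 0.556).

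The antagonist Il1rn was highest in neutrophil-like and macrophage-like cells, which could not be ordered. Neutrophil-like cells had 203, 154 and 219 CPM in the control libraries and 227, 88.8 and 98.9 in the labelled knockout, and macrophage-like cells 69.2, 227 and 301 against 328, 43.6 and 78.8. Each class was the higher one in 3 of 6 libraries (median log2 difference -0.07, SD 0.89; exact permutation p = 0.562, adjusted p = 0.562). The order depended on the setting, from -0.56 to 1.59, the latter with a stricter cell filter. Dendritic-like cells (14.6 to 119) were below macrophage-like cells in 5 of 6 libraries. The balance of antagonist to agonist differed between these classes. In macrophage-like cells there were 2.12, 1.68 and 0.754 UMIs of Il1rn for each UMI of Il1b in the control libraries and 0.919, 2.29 and 1.49 in those labelled knockout. In neutrophil-like cells the same ratio was 0.0720, 0.0267 and 0.0428 in the controls and 0.0602, 0.0585 and 0.0623 in the labelled knockout. The ranges of the classes did not overlap, and within each class the genotype labels overlapped.

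Among the receptors, the decoy Il1r2 followed the neutrophils. Its levels in neutrophil-like cells were 860, 1028 and 561 CPM in the control libraries and 1952, 212 and 400 in the labelled knockout. Dendritic-like cells, the next class, held 6.90 to 226, and neutrophil-like cells were higher in 6 of 6 libraries (median log2 difference 3.80, SD 1.47; exact permutation p = 0.0312, adjusted p = 0.0521). Neutrophil-like cells thus carried the decoy at a high level, while Il1r1, the signalling receptor, had a median of 2.25 CPM in them. The accessory chain Il1rap, at a lower level, was also highest in neutrophil-like cells, with 61.4, 138 and 84.4 in the control libraries and 449, 22.7 and 15.6 in the labelled knockout. Library 1 of the labelled knockout was far above, and libraries 2 and 3 below, all controls. Monocyte-like cells (8.05 to 30.02) and pericyte-like cells (8.24 to 16.9) followed, and neutrophil-like cells were above monocyte-like cells in 6 of 6 libraries (median log2 difference 2.05, SD 1.28; exact permutation p = 0.0312, adjusted p = 0.0521).

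Il1r1 had the opposite distribution and was highest in cells of the vessel wall and of connective tissue. Pericyte-like cells held 115, 352 and 217 CPM in the control libraries and 485, 57.7 and 85.6 in those labelled knockout. Pi16 progenitor-like cells followed with 70.2, 116 and 98.0 against 268, 41.0 and 65.3. Endothelial-like cells were at 53.6, 151 and 70.9 and at 75.6, 32.3 and 40.0, and fibroblast-like cells between 27.6 and 122. An immune class, T/NK-like cells, came next at a median of 25.5 (0 to 46.0), with 61 UMIs in all, above the other stromal-like classes. Pericyte-like cells were above Pi16 progenitor-like cells in 6 of 6 libraries (median log2 difference 0.78, SD 0.45; exact permutation p = 0.0312, adjusted p = 0.0521). In both vascular classes the decoy was scarce, with 0.0267 to 0.163 UMIs of Il1r2 for each UMI of Il1r1 in pericyte-like cells and 0.0151 to 0.118 in endothelial-like cells.

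**Figure D2:**
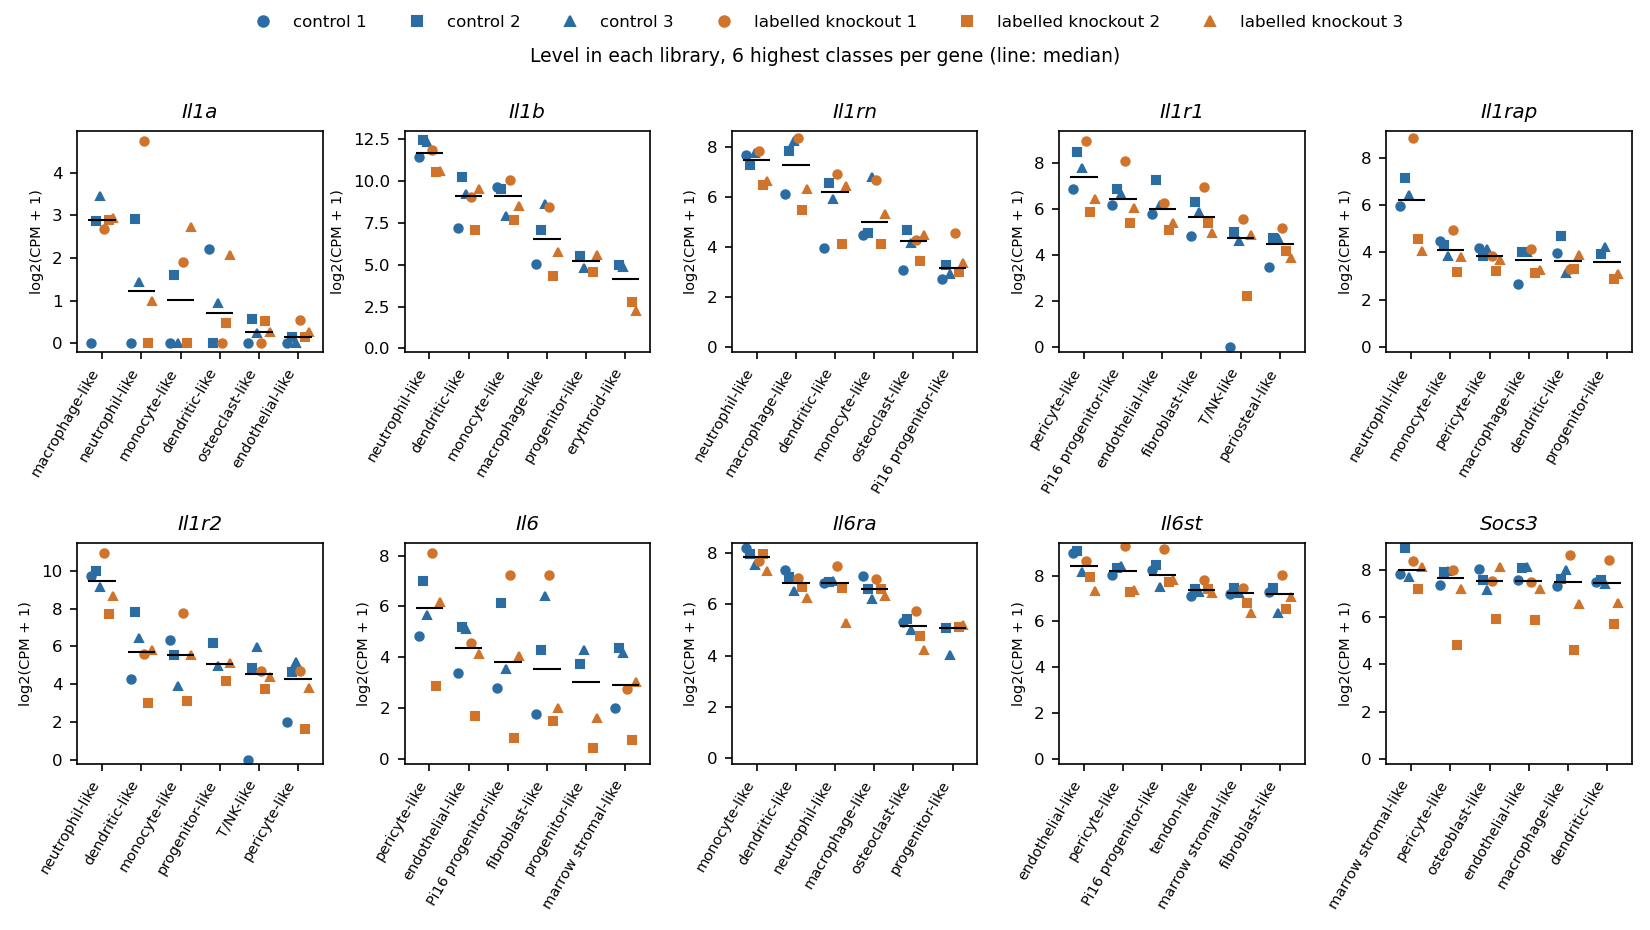
Level of each member on log2(CPM + 1) in the 6 classes where its median is highest. Each point is 1 library, coloured by genotype label, and the line is the median over libraries; control and labelled knockout points overlap for most members, and the lowest points of Il6 and Socs3 in pericyte-like cells are those of labelled knockout library 2 (6.18 and 26.8 CPM).

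Il6 was found in vascular and fibroblastic cells and was scarce in neutrophil-like cells. Pericyte-like cells held 27.1, 127 and 49.6 CPM in the control libraries and 276, 6.18 and 71.2 in those labelled knockout. Endothelial-like cells held 9.30, 35.9 and 33.8 against 22.8, 2.24 and 16.2, and were below pericyte-like cells in 6 of 6 libraries (median log2 difference 1.62, SD 1.02; exact permutation p = 0.0312, adjusted p = 0.0521). Pi16 progenitor-like cells (5.92, 69.9 and 10.5 in the controls, 151, 0.774 and 15.7 in the labelled knockout) and fibroblast-like cells (2.40, 18.4 and 83.7 against 148, 1.79 and 2.96) followed. The libraries differed widely. Whole libraries held 179, 1575 and 2001 Il6 UMIs in the controls and 3246, 52 and 523 in the labelled knockout, so that the highest and the lowest library carried the same label. After thinning to 500 UMIs a cell, a median of 2.93% of pericyte-like cells and 0.0280% of neutrophil-like cells had an Il6 UMI (22.9% and 0.290% without thinning).

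The ligand-binding chain Il6ra was, in contrast, a transcript of myeloid cells. Monocyte-like cells stood at 287, 249 and 184 CPM in the control libraries and at 203, 249 and 157 in those labelled knockout. Dendritic-like cells held 160, 131 and 90.7 against 128, 99.3 and 73.6, and were lower in 6 of 6 libraries (median log2 difference 0.97, SD 0.22; exact permutation p = 0.0312, adjusted p = 0.0521). Neutrophil-like cells (37.0 to 180) and macrophage-like cells (71.6 to 137) overlapped with each other, and pericyte-like and endothelial-like cells had at most 11.6.

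The signalling chain Il6st was broad, with the highest medians in endothelial-like, pericyte-like and Pi16 progenitor-like cells. Endothelial-like cells held 513, 539 and 285 CPM in the control libraries and 401, 241 and 161 in those labelled knockout. Pericyte-like cells held 257, 324 and 338 against 621, 157 and 164, and Pi16 progenitor-like cells 301, 352 and 183 against 575, 207 and 225. The first pair could not be ordered, since endothelial-like cells were higher in 3 of 6 libraries (median log2 difference 0.30, SD 0.64; exact permutation p = 0.438, adjusted p = 0.547). Nor could pericyte-like cells be set above Pi16 progenitor-like cells, being higher in 2 of 6 libraries (median log2 difference -0.17). Pi16 progenitor-like cells were above tendon-like cells, the next class, in 6 of 6 libraries. Neutrophil-like cells, at 6.33 to 28.5, had Il6ra and little Il6st.

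Socs3, which both cytokine systems and other signals induce, was spread over stromal, vascular and myeloid cells. Marrow stromal-like cells were highest, with 227, 481 and 203 CPM in the control libraries and 333, 143 and 279 in those labelled knockout. Pericyte-like cells followed with 163, 238 and 243 against 254, 26.8 and 143, and were lower in 5 of 6 libraries (median log2 difference 0.72, SD 0.89; exact permutation p = 0.0625, adjusted p = 0.0893). Endothelial-like cells (58.1 to 277), osteoblast-like cells (59.0 to 272) and macrophage-like cells (23.4 to 391) overlapped with both.

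Within the endothelial-like class, Il1r1 and Il6st were highest in the venous-like cluster, which was named from Selp, Ackr1, Nr2f2, Vwf and Lrg1 and in which leukocytes are known to leave the blood. Il1r1 stood there at 164, 415 and 321 CPM in the control libraries and at 197, 140 and 179 in those labelled knockout, while the highest other endothelial cluster of each library had 28.1 to 100. The venous-like cluster was the highest in 6 of 6 libraries, and it was above the pericyte-like class of the same library in 5 of 6. Il6st was higher still against its neighbours, with 1921, 1371 and 1075 in the controls and 1367, 1162 and 794 in the labelled knockout, where the highest other cluster had 183 to 370. It was above all other endothelial clusters and above pericyte-like cells in 6 of 6 libraries. Socs3 (265, 551 and 498 against 211, 92.4 and 312) and Il6 (17.9, 78.7 and 58.4 against 31.8, 0 and 47.4) were highest in this cluster in 4 of 6 libraries each. Of the other receptor chains, Il6ra was highest there in 0, Il1rap in 1 and Il1r2 in 3 of 6 libraries. The venous-like cluster made up 24.4, 22.0 and 10.96% of endothelial-like cells in the control libraries and 21.0, 8.75 and 11.5% in those labelled knockout. The part of this share in the class levels of Il1r1 and Il6st was not tested. These clusters were formed on the same cells, so the comparison is a description.

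**Figure D3:**
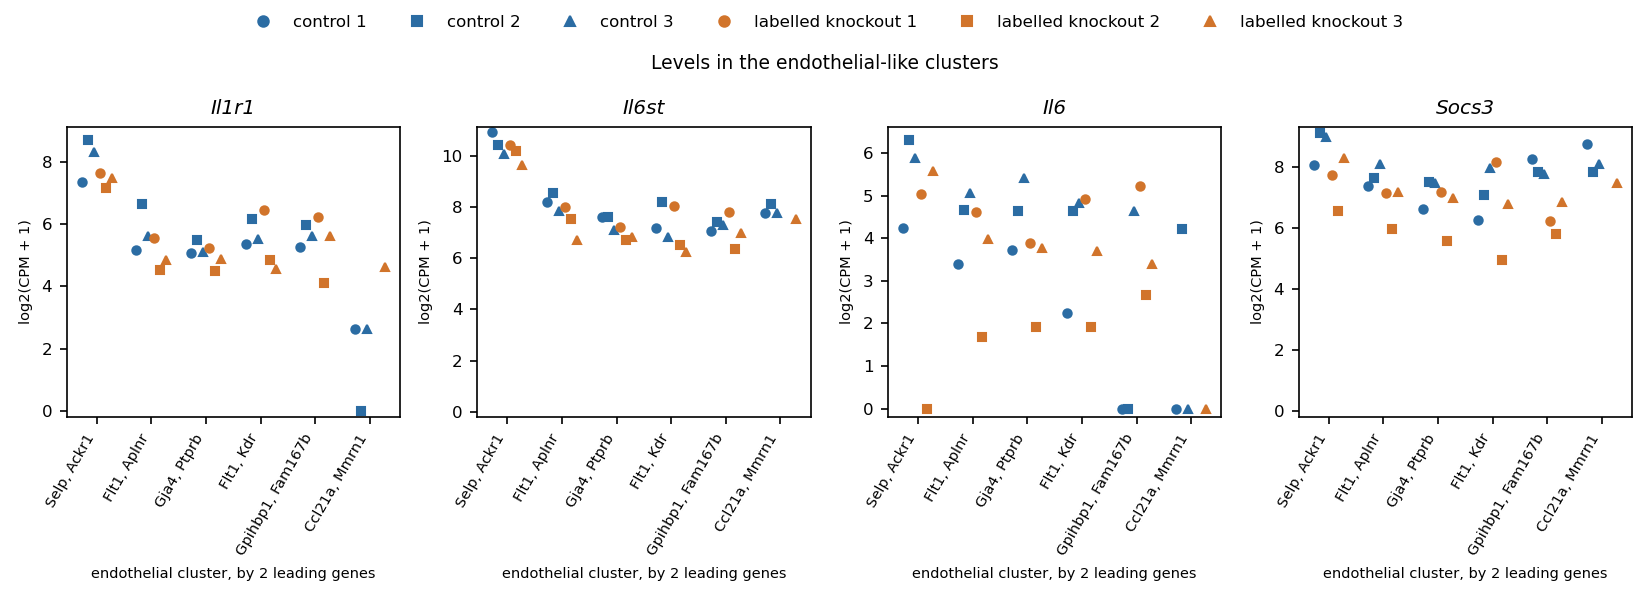
Levels of Il1r1, Il6st, Il6 and Socs3 (log2(CPM + 1)) in the 6 endothelial-like clusters, 1 point per library, coloured by genotype label. The venous-like cluster lies above every other endothelial cluster in 6 of 6 libraries for Il1r1 and Il6st and in 4 of 6 for Il6 and Socs3.

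The number of cells as well as the level decides which class holds most of a transcript. Neutrophil-like cells, a median of 7.46% of cells, held a median of 58.8% of all Il1b UMIs (56.7 to 80.0% over libraries) and 69.5% of Il1r2 UMIs (48.4 to 76.9%). Macrophage-like cells, 5.89% of cells, held 38.8% of Il1rn (27.0 to 63.7%), and neutrophil-like cells 19.0%. Under a stricter cell filter, which changed the naming of myeloid clusters, the macrophage-like share of Il1rn was 2.68%. Stromal-like cells, at a median of 50.4% of cells, held the largest median share of several receptors in spite of lower levels. For Il1r1 they held 50.5% (14.98 to 83.7%), the endothelial-like class 25.5% and the pericyte-like class, 2.71% of cells, 14.8%. This order did not hold in every library. In control library 2, endothelial-like cells held 2916 and pericyte-like cells 1646 of 5486 Il1r1 UMIs, each more than stromal-like cells. In labelled knockout library 2, endothelial-like cells held 317 of 683, also more than stromal-like cells. Il1rap also had its largest median share in stromal-like cells, at 48.0% (13.4 to 75.3%). Neutrophil-like cells at 10.8% (3.00 to 49.2%) and endothelial-like cells at 8.86% followed.

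For each member of the interleukin-6 system the stromal-like class had the largest median share, though not in every library. In control library 2 endothelial-like cells led for Il6, Il6st and Socs3 (44.1, 66.5 and 41.7%, against 13.3, 19.1 and 28.3% in stromal-like cells) and monocyte-like cells were above stromal-like cells for Il6ra (25.6 against 9.98%). Il6 UMIs fell to stromal-like cells at 38.3% (13.3 to 90.0%), to endothelial-like cells at 29.3% (1.57 to 44.1%) and to pericyte-like cells at 19.9% (5.77 to 37.7%). Il6st lay in stromal-like cells at 55.7% (19.1 to 84.0%) and in endothelial-like cells at 26.1% (8.26 to 66.5%), and Socs3 at 72.2% (28.3 to 80.6%) and 11.7%. Il6ra was divided among stromal-like cells at 32.8% (4.61 to 60.8%), macrophage-like cells at 17.8% and monocyte-like cells at 15.7%. No named stromal-like class had more than a median of 17.9 CPM of Il6ra. The stromal-like share also counted 6641 cells without a finer name. Among them were clusters of 3563 and 439 cells whose 10 leading genes held S100a9. The part of these cells in the share was not tested. With each library left out in turn, the stromal-like share of Il6ra ranged from 15.5 to 50.1%.

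**Figure D4:**
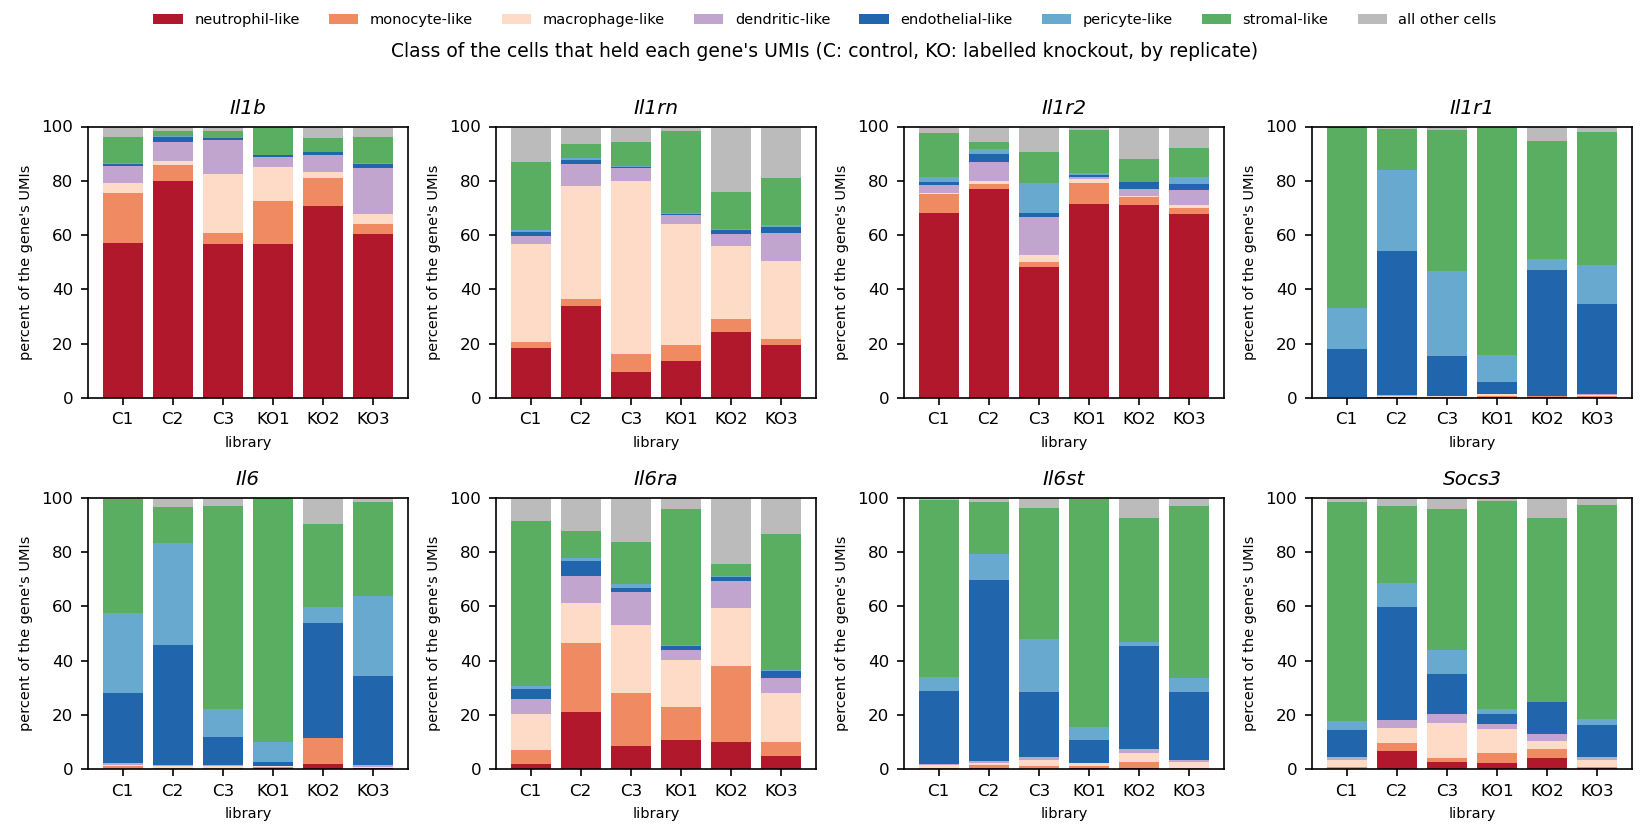
Share of each member's UMIs (vertical axis, percent of the gene's UMIs in a library) that lay in each class, as 1 stacked bar per library, for the 8 members other than the low Il1a and Il1rap. Neutrophil-like cells take the largest part of Il1b and Il1r2, and stromal-like and vascular cells that of Il6, Il1r1 and Il6st.

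Whether these levels differed by genotype label was tested with edgeR's quasi-likelihood test on UMIs summed per library in 6 populations, fitted over all genes that passed the filter on low counts. No member was called in any population at an adjusted p under 0.05. Of the 10 members, 7 were tested in neutrophil-like, 7 in monocyte-like, 8 in macrophage-like, 9 in endothelial-like, 8 in pericyte-like and 9 in stromal-like cells, 48 pairs in all. The share of all tested genes called was 0% in each of the 6 populations. A count of 0 members therefore cannot show whether they stood apart from the background. Of all genes, 196 to 721 per population had an unadjusted p under 0.05 by edgeR, and DESeq2 called at most 1 gene per population. No member reached an unadjusted p under 0.05 either (0 of 48), and adjusted p ranged from 0.832 to 1.00 by edgeR. DESeq2 called 0 members, with unadjusted p under 0.05 for 1 member in neutrophil-like and 3 in endothelial-like cells. The fitted difference was lower in the labelled knockout in 33 pairs and higher in 15. Medians over all genes tested ran from -2.4e-04 (pericyte-like) to 0.028 (neutrophil-like). The pairs share libraries and members, so no general direction is read from this count. Without labelled knockout library 3, 0 members were called and 0 had an unadjusted p under 0.05 by edgeR in all 6 populations. Fits without labelled knockout library 1, given below, keep control library 1. Traits shared by the libraries numbered 1 cannot then be told apart from the label. These 2 libraries had the fewest UMIs per barcode, at medians of 2554 (control) and 2728.5 (labelled knockout), against 5691 or more in the others. With both of these left out, 4 libraries remained and 0 members were called. By edgeR, members with an unadjusted p under 0.05 were then 5 of 7 (neutrophil-like), 1 of 7 (monocyte-like) and 6 of 10 (macrophage-like). They were 5 of 9 in endothelial-like, 4 of 9 in pericyte-like and 3 of 9 in stromal-like cells. Of all genes tested, 1091 of 8822, 395 of 9790 and 1466 of 11896 did so in the first 3 populations. In the last 3, 1624 of 14573, 1582 of 12213 and 1379 of 18139 did. Without control library 2, by edgeR, 1 of 8 members had an unadjusted p under 0.05 in pericyte-like cells and 0 in the other populations. Of all genes tested, 91 of 7496, 113 of 8670 and 122 of 11913 then did so in the first 3 populations. In the last 3, these counts were 302 of 13981, 247 of 11513 and 187 of 19046. The markers of other cell types moved with the label in part: the summed neutrophil markers stood at 92.0 to 835 CPM in pericyte-like cells of the controls and 177 to 2161 in the labelled knockout, and at 522 to 944 and 589 to 1386 in endothelial-like cells, with all 11 markers detected in every endothelial library. Summed macrophage markers did not overlap in pericyte-like cells (48.5 to 85.4 against 107 to 389, with at least 9 of 10 detected) or in stromal-like cells (52.7 to 87.2 against 143 to 279, all 10 detected in every library). The part of these markers in the results was not tested.

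Il1b in neutrophil-like cells showed one of the larger differences. It was lower in the labelled knockout by a log2 difference of -0.94 (SE 0.46; unadjusted p = 0.0689, adjusted p = 1.00 by edgeR), with libraries 2 and 3 of the labelled knockout below all controls and library 1 among them. In all 17 settings tried, the difference stayed negative, between -1.58 and -0.52. Without labelled knockout library 1 it was -1.29 (unadjusted p = 0.0102, adjusted p = 0.276). In that fit 5 of 7 members and 1094 of all 8865 genes tested had an unadjusted p under 0.05. With all libraries these counts were 0 of 7 and 249 of 7808. The Ltf-led cluster, low in Il1b, made up a larger part of neutrophil-like cells in labelled knockout libraries 2 and 3 than in any control. In the Stfa2l1-led cluster, labelled knockout libraries 1 and 3 were above control library 1 in Il1b, and library 2 was below all controls. The part of this cluster composition in the difference was not tested. The other members in these cells ranged from -0.61 (Socs3, SE 0.64) to 0.59 (Il1rap, SE 0.95). Il1rap depended on 1 library, since without labelled knockout library 1 its difference was -2.11 (unadjusted p = 7.6e-04, adjusted p = 0.242). No pair in neutrophil-like cells had groups that did not overlap, where 8.58% of all genes tested did. Summed macrophage markers, all 10 of which were detected in at least 5 libraries, stood at 191 to 345 CPM in neutrophil-like cells of the controls and 265 to 450 in the labelled knockout, and their part was not tested.

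In monocyte-like cells the fitted differences ran from -0.23 (Il6st, SE 0.34) to 1.07 (Il1r2, SE 0.94), and in macrophage-like cells from -0.62 (Il1r2, SE 1.07) to -0.01 (Il1a, SE 0.74). Il6ra, the member with the steadiest level, had a log2 difference of -0.20 (SE 0.29) in monocyte-like and -0.02 (SE 0.26) in macrophage-like cells. The groups overlapped for all members in both populations, against 6.93% and 5.63% of all genes whose groups did not overlap. Il1rn in macrophage-like cells was 0.53 lower on the log2 scale (SE 0.77), with the highest and the lowest library both in the labelled knockout. It ranged from -2.15 (unadjusted p = 0.00102, adjusted p = 0.270, without replicate 1 of both groups) to 0.47 (stricter cell filter) over 17 settings. Without labelled knockout library 1 it was -1.73, Socs3 -1.78 and Il1b -2.45 in macrophage-like cells (unadjusted p 0.0187 to 0.0468, adjusted p 0.461 to 0.484). Socs3 was then -1.37 in monocyte-like cells (unadjusted p = 0.00265, adjusted p = 0.905). In these fits 1217 of 11827 genes in macrophage-like and 436 of 9678 in monocyte-like cells had an unadjusted p under 0.05. With all libraries these counts were 196 of 11312 and 214 of 8843. Summed neutrophil markers in monocyte-like cells stood at 4678 to 6602 CPM in the controls and 2159 to 2512 in the labelled knockout, without overlap. Their part in the members' differences was not tested.

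In endothelial-like cells 8 of 9 members had a lower fitted level in the labelled knockout. Socs3 was lower by a log2 difference of -0.88 (SE 0.40; unadjusted p = 0.0594, adjusted p = 0.832 by edgeR), with every labelled knockout library (58.1 to 179) below every control (186 to 277). This was 1 of 9 members without overlap, and 10.7% of all genes tested in these cells had groups that did not overlap. Il1r1 differed by -0.90 (SE 0.45; unadjusted p = 0.0822), Il6st by -0.70 (SE 0.35; unadjusted p = 0.0799) and Il6 by -0.98 (SE 0.77; unadjusted p = 0.239), all with the same adjusted p as Socs3 or higher. For Il1r1 and Il6st, labelled knockout library 1 lay among the controls. Without that library, 4 of 9 members had an unadjusted p under 0.05 and 0 were called. Of all genes tested, 2116 of 14828 then had an unadjusted p under 0.05, against 721 of 14024 with all libraries. The log2 differences of the 4 members were -1.26 for Il1r1, -1.06 for Il6st, -1.13 for Socs3 and -0.76 for Il1rap (adjusted p 0.316 to 0.343). Over 17 settings Il1r1 ranged from -1.58 to -0.30 and Il6 from -1.83 to -0.43. The median log2 difference over the 9 members was -0.49, against 0.00 over all genes tested, and nothing particular to the members is read from it. The venous-like share of endothelial-like cells, given above, differed between libraries too, and its part was not tested. Summed macrophage markers, all 10 of which were detected in every library, were at 55.8 to 133 CPM in endothelial-like cells of the controls and 116 to 310 in the labelled knockout, and their part was not tested.

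In pericyte-like and stromal-like cells no direction held across libraries for Il6. Its log2 difference was 0.78 (SE 0.85) in pericyte-like cells and turned to -0.48 (SE 0.77) without labelled knockout library 1. In stromal-like cells it was 0.35 (SE 1.61) with library levels of 1.43, 9.18 and 39.3 in the controls and 65.5, 0.377 and 2.92 in the labelled knockout, and -3.18 (SE 1.52; unadjusted p = 0.0794) without that library. Il1r1 in pericyte-like cells turned from -0.15 (SE 0.69) to -1.54 (SE 0.48; unadjusted p = 0.0116, adjusted p = 0.292) in the same way. Without that library, 1639 of 11561 genes in pericyte-like and 2161 of 18805 in stromal-like cells had an unadjusted p under 0.05. With all libraries these counts were 450 of 11143 and 280 of 18247. Il1rap was the 1 of 8 members in pericyte-like cells whose groups did not overlap (16.9, 13.2 and 16.6 against 13.2, 8.24 and 11.6, the nearest pair being equal when rounded), where 9.23% of all genes tested did so, and its difference was -0.40 (SE 0.32; unadjusted p = 0.232). Socs3 in stromal-like cells differed by 0.02 (SE 0.33), and 0 of 9 members there had groups without overlap, against 3.92% of all genes. The stromal-like class held different kinds of cells in different libraries, with 1425 chondrocyte-like cells in labelled knockout library 3 and 42 in library 2, and it included clusters of 3563 cells led by Mir6236, Col10a1 and Lyz2 and of 439 cells led by Il1b and Retnlg, without which 0 members were called.

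**Figure D5:**
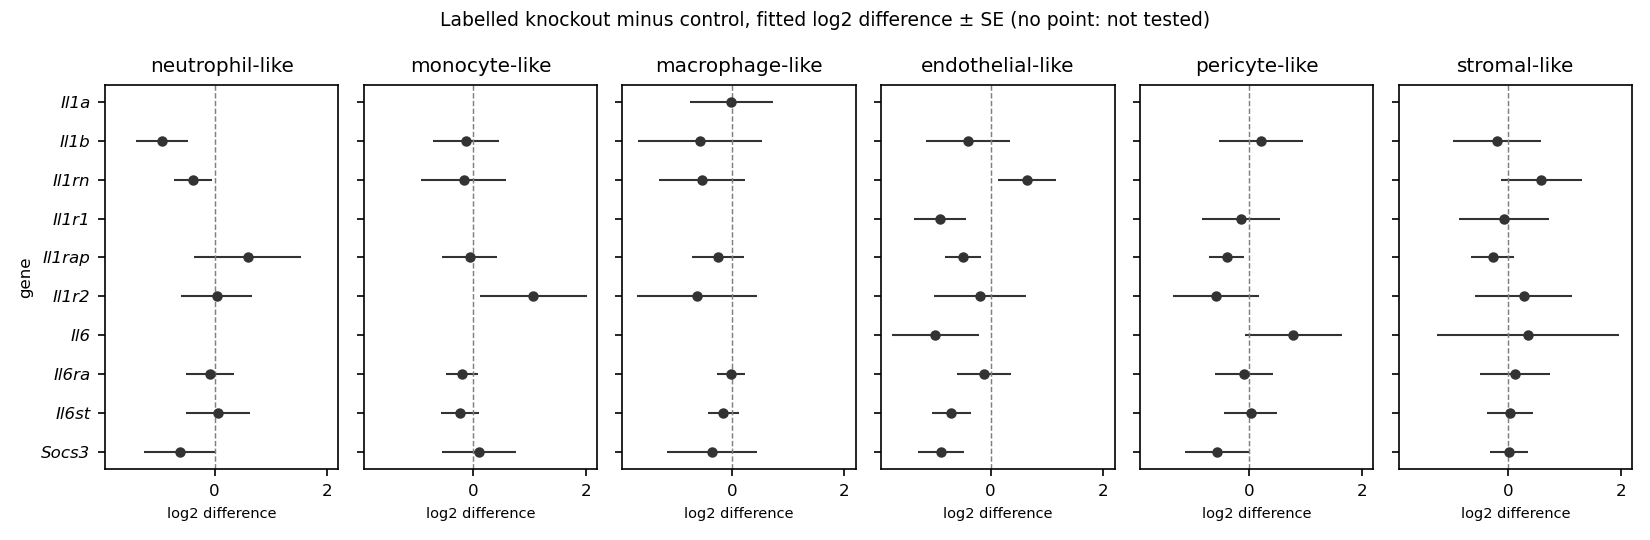
Fitted log2 difference, labelled knockout minus control, of each tested member in 6 populations, with bars of 1 SE. The SE was derived from the difference and the F statistic of edgeR's quasi-likelihood test. Most points lie below 0 in endothelial-like cells, where Il1rn is the member above 0, and none has an adjusted p under 0.05.

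The wider pathway was read from lists of genes beside the members. Of 12 genes of the interleukin-1 family and its processing found in the files, 15 of interleukin-1 receptor signalling, 12 of the NF-kB response, 12 interleukin-6 family ligands and receptors and 13 of Jak-Stat3 signalling, 0 were called by genotype label in any of the 6 populations. By edgeR, 4 genes had an unadjusted p under 0.05 in 1 population each, and DESeq2 also called 0 of them, with 0 to 2 per population at an unadjusted p under 0.05. Of all genes tested by edgeR, 249 of 7808 in neutrophil-like and 214 of 8843 in monocyte-like cells had an unadjusted p under 0.05. In macrophage-like and endothelial-like cells these counts were 196 of 11312 and 721 of 14024. Nothing particular to the 4 genes is read from their p-values. As labelled knockout minus control, Ptgs2, the inducible cyclooxygenase, had a log2 difference of -1.21 (SE 0.41; unadjusted p = 0.0139) in neutrophil-like cells, and Lcn2, a lipocalin of neutrophil granules, -1.31 (SE 0.51; unadjusted p = 0.0275) in monocyte-like cells. Summed neutrophil markers in monocyte-like cells were also lower in the labelled knockout, as given above, and their part in the Lcn2 difference was not tested. Il18, a further ligand of the interleukin-1 family, was at 1.25 (SE 0.47; unadjusted p = 0.0280) in macrophage-like cells, and the oncostatin M receptor Osmr at -0.89 (SE 0.35; unadjusted p = 0.0360) in endothelial-like cells. Among the lists in neutrophil-like cells, the median log2 difference was -0.47 over the 10 tested NF-kB response genes and -0.42 over the 12 tested Jak-Stat3 genes, against 0.03 over all genes. The direction differed between populations, since the NF-kB response list had a median of -0.42 in stromal-like and -0.11 in endothelial-like cells, and of 0.29 in monocyte-like, 0.13 in macrophage-like and 0.12 in pericyte-like cells, where the medians of all genes were between 0.00 and 0.02.

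The genes of the interleukin-1 lists were highest in different classes. Nlrp3, the sensor of the inflammasome that matures interleukin-1 beta, was highest in neutrophil-like cells at a median of 294 CPM (138 to 474), and Casp1, the protease that cleaves interleukin-1 beta, in monocyte-like cells at 59.3 (48.5 to 71.5). Nfkbia, the NF-kB inhibitor that NF-kB itself induces, and Cxcl2, a neutrophil attractant, were also highest in neutrophil-like cells, at 1243 (507 to 2620) and 4608 (1046 to 8722). Cxcl1, a related attractant, and Steap4, a metalloreductase, were highest in pericyte-like cells, the class with the most Il1r1 and Il6, at 342 (35.02 to 529) and 330 (185 to 403). Il33, an alarmin of the interleukin-1 family, lay in Pi16 progenitor-like cells at 84.7 (32.0 to 197), and its receptor Il1rl1 in fibroblast-like cells at 80.6 (1.97 to 151).

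The partners and relatives of interleukin-6 were read in the same way. Osm, which encodes oncostatin M, was highest in neutrophil-like cells at a median of 201 CPM (49.9 to 303), and its receptor chain Osmr in pericyte-like cells at 108 (41.2 to 172). Lifr, the leukaemia inhibitory factor receptor, was highest in marrow stromal-like cells at 583 (269 to 885), the class with the most Socs3, and Il11ra1, the interleukin-11 receptor, in tendon-like cells at 241 (151 to 330). Adam17, a protease that sheds Il6ra and thereby makes the soluble receptor, was highest in macrophage-like cells at 141 (128 to 188). Stat3 itself was highest in neutrophil-like cells at 305 (134 to 384) and the kinase Jak1 in T/NK-like cells at 484 (374 to 817).

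Over the mean levels of the 18 classes, the genes whose pattern was most like each member were named from all genes that reached 20 CPM in a class. Classes share libraries, depth and free RNA, so that r describes likeness only. For Il1b these were Gm5150, Cd33 and Cd300ld (Pearson r = 0.975 each), and for Il1r2 Ifitm1 (0.953), Jaml and Trim30b. Il1rn was most like Fth1 (0.926), Rnf149 and Cxcl2, Il1rap like Gm13822 (0.918), 2010005H15Rik and Trim30b, and Il1a, which itself stayed under that level, like Trpm2 (0.940), Clec4d and Cd300ld. Il1r1 was most like Lrrc32 (0.935), Pear1 and Hic1, and Il6 like C1qtnf7 (0.896), Aoc3 and Ms4a4d. Il6ra was most like Tpd52 (0.934), Fem1c and Gpr35, Il6st like Rock2 (0.964), Socs5 and Dync1li2, and Socs3 like Cbr3 (0.893), Taok1 and Gm42826.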

How the data were processed

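Single-cell libraries were made with the 10x Genomics 3' kit from mouse callus, and 3 control libraries were compared with 3 labelled knockout. Per the file headers, the authors counted UMIs with Cell Ranger, version 6.1.1 for both replicates 1 and version 6.1.2 for the others, on GRCm38. The deposited values are raw counts of filtered barcodes. The files listed 55450 genes (replicates 1 and 2) or 55357 (replicate 3), and the 52081 shared ones held at least 97.8% of each library's UMIs. The members, the gene lists and the tests were chosen with earlier results of these data known.

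Barcodes below 500 UMIs or 200 genes, or above 20% mitochondrial UMIs, were dropped. Doublets were removed by Scrublet score (0.8% per 1000 cells, 3046 cells in all), because the caller's own threshold marked none in 4 libraries. From 2000 variable genes without members and listed genes, 30 components were integrated with RPCA in Seurat 5.3.0 (R 4.3.3) and clustered with leidenalg 0.10.2 on 20 neighbours at resolution 0.8 (scanpy 1.11.5, Python 3.11.15). A name needed 3 markers found in at least 25% of cells and at least 2-fold above the median cluster. Naming thresholds were set with the data in view but blind to genotype. Classes needed 10 cells in a library. UMIs were summed per library and class and tested with edgeR 4.0.16 (TMM scaling, genes kept by filterByExpr, two-sided quasi-likelihood F test, Benjamini-Hochberg adjustment over all genes tested, threshold 0.05). DESeq2 1.42.0, other clusterings, cell filters, a pseudocount of 5 in place of 1, and left-out libraries were alternatives, as were the stromal clusters led by immune genes left out, which was chosen after the data were seen. The SE given with an edgeR difference is the absolute difference divided by the square root of its F statistic. The edgeR fits were tested on simulated data. Genes named were the members, the 3 most alike genes of each, and listed genes by level or unadjusted p, the latter chosen after their values were seen. S100a8, Xist and the Y chromosome genes served as checks. The sources differ in the number of mice and do not tie mice to libraries, so p-values measure the spread between these libraries. Shares of cells were not tested, and they also vary between libraries.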

Additional observations from a re-analysis of the deposited data

Results flagged for a closer look

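Xist, the X inactivation transcript of female cells, stood at 578 CPM (UMIs per 1000000 UMIs) over all cells of labelled knockout library 3, and at no more than 0.170 in any control library. It was picked out because it is a signal outside the measurements that the comparisons use and is above its level in the controls. No member was called by genotype label with or without this library.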

How the results depend on the processing

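For the genotype labels, 0 members were called in all 97 alternative fits of the 6 populations. The difference between the 2 highest classes stayed within its SD over libraries, without a change of sign, in 125 alternatives. It moved further in 4 and reversed in 10. This limit is wide where the SD is large, and Il1a counted as within it at a difference of 0 with a library left out. The leading source share stayed within its SD in 126 alternatives and moved in 4. With a stricter cell filter (1000 genes and 10% mitochondrial UMIs) a cluster of 2309 cells led by Ctss, Pf4 and Cd74 was named dendritic-like, and the macrophage-like share fell to 11.97% for Il1a and 2.68% for Il1rn. The neutrophil-like share was then 44.4% for Il1b and 54.9% for Il1r2, Il1rn was higher in neutrophil-like cells by 1.59 (log2), and the Il1r1 difference was 0.31. Resolution 0.4 gave 0.89 for Il1b and 0.77 for Il1r2, and no value for Il1r1, whose class was absent. Without integration, Il1r2 gave 1.55 and Il1rn 0.43. Without replicate 3 of both groups, Il1a gave -0.032 and Il1rn 0.24. With each library left out in turn, Il1rn ranged from -0.46 to 0.32 and Il6st from -0.023 to 0.62. Beyond the construction of each setting, the cause was not tested.

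Without the filter on low counts, 30, 44, 19, 12, 87 and 0 genes were called in neutrophil-, monocyte-, macrophage-, endothelial-, pericyte- and stromal-like cells, none of them a member and 2 of them in each of monocyte- and pericyte-like cells from the pathway lists, against 0 with it. Pericyte-like cells had 25 called genes without replicate 1 of both groups. DESeq2 called at most 1 gene in a population. Samples of the 2 groups shared replicate numbers. Same-numbered libraries had a correlation over 0.1 in all 3 pairs in none of the 6 populations. Not every library correlated best with its own number, so the numbers were not taken to pair the libraries. The 2 libraries numbered 1 correlated at 0.148 in neutrophil-, 0.205 in monocyte-, 0.010 in macrophage-, 0.364 in endothelial-, 0.229 in pericyte- and 0.259 in stromal-like cells. A trait particular to the libraries numbered 1 was not tested. With the replicate block, 0 members were called in all 6 populations. Low levels limit Il1a and Il6, which rest on few UMIs in several classes.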
